A study of Mus musculus with 16 samples.

Results

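M-cadherin (Cdh15), 4 further cadherins (Cdh2, Cdh4, Cdh11 and Cdh13) and 3 catenins (Ctnnb1, Ctnna1 and Ctnnd1) were followed across cultured mouse muscle cells with and without the miR-1 and miR-206 family. The 8 genes were taken by symbol from a table of 35275 genes, and M-cadherin was chosen by its FPKM, which was already known to be higher in knockout than in control cells in growth medium. That difference, and the changes of Cdh15 between stages that share those libraries, are therefore described and not tested. The libraries were made from poly(A)-enriched RNA of the established mouse myoblast line C2C12, and all of them came from cells labelled PAX7 negative. Control cells were wild type and consisted of 2 populations. Triple knockout (tKO) cells lacked both miR-1a genes (miR-1a-1, miR-1a-2) as well as miR-206 and consisted of 2 clones, so each knockout line descends from a single cell while the controls do not. Cells were harvested while subconfluent in serum-rich growth medium (GM) or after 3 days in low-serum differentiation medium (DM3). Each line and stage had 1 library titled BR1 and 1 titled BR2, which gave 4 libraries in each of 4 groups. The labels do not say that these came from separate cultures, so the spread between them, and the p-values built on it, may be partly technical.

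Classical cadherins are transmembrane proteins that bind like molecules on the neighbouring cell through calcium. Their cytoplasmic tails hold p120-catenin (Ctnnd1) near the membrane and β-catenin (Ctnnb1) further along, and α-catenin (Ctnna1) connects β-catenin to actin filaments. β-Catenin also acts in Wnt signalling as a partner of TCF factors in the nucleus. In skeletal muscle, M-cadherin is a cadherin of satellite cells and myoblasts and has been studied for its part in myoblast contact and fusion. N-cadherin (Cdh2) is present in early myoblasts, R-cadherin (Cdh4) and cadherin-11 (Cdh11) occur in other mesodermal and neural cells, and T-cadherin (Cdh13) lacks a cytoplasmic tail and is held in the membrane by a lipid anchor. miR-1 and miR-206 share a seed and are made in differentiating muscle, where they lower the output of mRNAs that carry matching sites in their 3′ untranslated regions (3′ UTRs).

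The deleted microRNAs act through the seed, so the sequence of mature miR-206 from RefSeq is shown with its seed, bases 2 to 8, in capitals. It lies on chromosome 1 of GRCm38.p6, plus strand, at chr1:20679055-20679076.
miR-206-3p: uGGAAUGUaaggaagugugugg
An 8-base match in a transcript reads ACATTCCA (reverse complement of the seed followed by A), and the shorter forms ACATTCC and CATTCCA, each contained in it, were searched on the transcript strand of the longest 3′ UTR that GENCODE M21 gives for each gene. Of the 8 genes, 1 held a match, Ctnnd1, against 4.46% of 10806 expressed genes that held the 8-base form and 19.0% that held any of the forms. The Ctnnd1 match occupied bases 539 to 546 of a 3′ UTR of 2821 bases. It is printed in capitals with its flanks, which together lie on the minus strand at chr2:84602335-84602364.
Ctnnd1 site: gaaacattggcACATTCCAcctggcaaggg
None of the 3 forms occurred in the 374-base 3′ UTR of Cdh15, which is shorter than the median of 1191 bases among the expressed genes. The 3′ UTRs of the other 6 genes ran from 887 bases (Ctnna1) to 3455 bases (Cdh4) and also held none of these letters.

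The values are FPKM, fragment numbers scaled to gene length and library size, and differences are those of log2(FPKM + 1), a scale on which low genes appear to change less than they do. The deposited values corresponded to between 22642563 and 56585952 fragments per library. Genes were tested with limma where the mean over all 16 libraries was at least 0.5 FPKM, which 11832 genes reached, 6 of the 8 genes described here among them. Myoblast markers were checked first. Vim (vimentin), Myf5, Des, Itga7, Cd34 and Sdc4 were present in all groups, and Pax7 did not exceed 0.0238 FPKM in any library. Myod1, although a defining myoblast gene, was listed at 0 in the 4 control GM libraries and reached 0.0546 FPKM at most in tKO GM. In DM3 it averaged 1.90 FPKM in controls and 2.34 FPKM in knockouts. Des (desmin) averaged 39.5 and 22.1 FPKM in control and tKO GM and 339.3 and 175.2 FPKM in control and tKO DM3. Itga7 averaged 40.85 and 67.7 FPKM in GM and 369.2 and 511.3 FPKM in DM3 in the same order. The summed level of 12 myotube markers was 8.3 to 73.4 FPKM in GM and 343.0 to 1108.8 FPKM in DM3. Neither the deleted microRNAs nor their host transcripts were analysed here, so the genotype was taken from the labels alone.

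Cdh15 lies on the plus strand of chromosome 8 at 122848374 to 122867397 (mm10, coordinates of the deposited table), the chromosome that also holds Cdh13 (118283733 to 119324921, plus strand) and Cdh11 (102632995 to 102785111, minus strand). M-cadherin was low in control myoblasts and about 3-fold higher in the knockout myoblasts. In control GM it measured 9.16 and 10.4 FPKM in line 1 (BR1 and BR2) and 8.15 and 11.4 FPKM in line 2. In tKO GM it measured 40.3 and 32.3 FPKM in clone 1 and 19.6 and 26.4 FPKM in clone 2. Every knockout value lay above every control value, and clone 1 lay above clone 2. The means were 9.79 ± 1.44 (SD, n = 4) and 29.7 ± 8.80 FPKM (SD, n = 4), a ratio of 3.03 and a log2 difference of 1.47. In the log2 values clone 1 exceeded control line 1 by 1.79 and clone 2 exceeded control line 2 by 1.16, and the difference was 1.60 among BR1 and 1.34 among BR2 libraries. Here and below, clones were set beside control lines by number only, since the labels do not pair them.

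The difference in M-cadherin was seen in RNA from whole cultures, where a change in the number of cells of a type and a change in RNA per cell cannot be told apart. A list of 9 epithelial markers was also higher in tKO than in control GM. Its summed level was 2.77 to 7.31 FPKM in control GM and 10.4 to 15.2 FPKM in tKO GM, 6 of the 9 stayed below 0.5 FPKM in all 16 libraries, and most of the sum came from the keratin gene Krt14 (3.91 ± 1.86 against 10.2 ± 1.82 FPKM, SD, n = 4 each). The defining epithelial genes Cdh1 (E-cadherin) and Epcam did not exceed 0.110 and 0.173 FPKM in GM. In DM3 the summed epithelial markers were 2.15 to 4.04 FPKM in controls and 1.29 to 6.44 FPKM in knockouts and overlapped. The part of these markers in the Cdh15 difference was not tested. The summed myotube markers in GM reached 11.7 FPKM at most in controls and 10.3 to 73.4 FPKM in knockouts. The skeletal actin gene Acta1 carried most of these sums (7.68 to 9.48 and 9.02 to 72.1 FPKM), and the mean log2 level of the list was 0.33 to 0.53 and 0.41 to 0.66. In clone 1 the sums were 10.3 and 73.4 FPKM (BR1 and BR2), beside Cdh15 at 40.3 and 32.3 FPKM. In clone 2 they were 19.9 and 27.3 FPKM, beside Cdh15 at 19.6 and 26.4 FPKM. The part of the myotube markers in the Cdh15 difference in GM was not tested.

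After 3 days of differentiation the mean of M-cadherin was higher in both genotypes, and the knockout mean again lay above the control mean. Control DM3 libraries measured 38.0 and 23.4 FPKM in line 1 and 27.1 and 23.3 FPKM in line 2. Knockout DM3 libraries measured 52.6 and 47.4 FPKM in clone 1 and 45.2 and 32.9 FPKM in clone 2. The groups overlapped only through control line 1 BR1, which exceeded clone 2 BR2. The means were 28.0 ± 6.94 and 44.5 ± 8.37 FPKM (SD, n = 4 each). The log2 difference was 0.66 (SE 0.20, 95% interval 0.23 to 1.09) and did not pass in limma (Benjamini-Hochberg adjusted p = 0.0942 over all tested genes). It was 0.72 for clone 1 with control line 1 and 0.60 for clone 2 with control line 2. Without clone 2 it was 0.84 with an adjusted p of 0.0162, without clone 1 it was 0.48 with an adjusted p of 0.228, and over all alternatives the adjusted p ran from 0.0162 to 0.572.

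Ordered by level, M-cadherin was lowest in control GM, then in control DM3 and tKO GM, whose ranges of 23.3 to 38.0 and 19.6 to 40.3 FPKM overlapped, and highest in tKO DM3, whose range of 32.9 to 52.6 FPKM overlapped with both of these. The means of tKO GM and control DM3 were 29.7 and 28.0 FPKM. From GM to DM3 the log2 difference was 1.41 in controls, a ratio of 2.86 with no overlap, and 0.59 in knockouts, where the ranges overlapped. These 2 values share libraries with the GM contrast and carry no test. In DM3, BR1 exceeded BR2 in each of the 4 lines. The summed myotube markers in tKO DM3 were 1108.8 and 1084.1 FPKM in the BR1 libraries and 343.0 and 380.9 FPKM in the BR2 libraries, so in knockouts the BR2 libraries were lower in both. In control DM3 the sums ran the other way, at 886.1 and 641.3 FPKM in BR1 and 1105.3 and 738.6 FPKM in BR2, while Cdh15 was lower in BR2. The part of the myotube markers in the Cdh15 values was not tested.

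**Figure D1:**
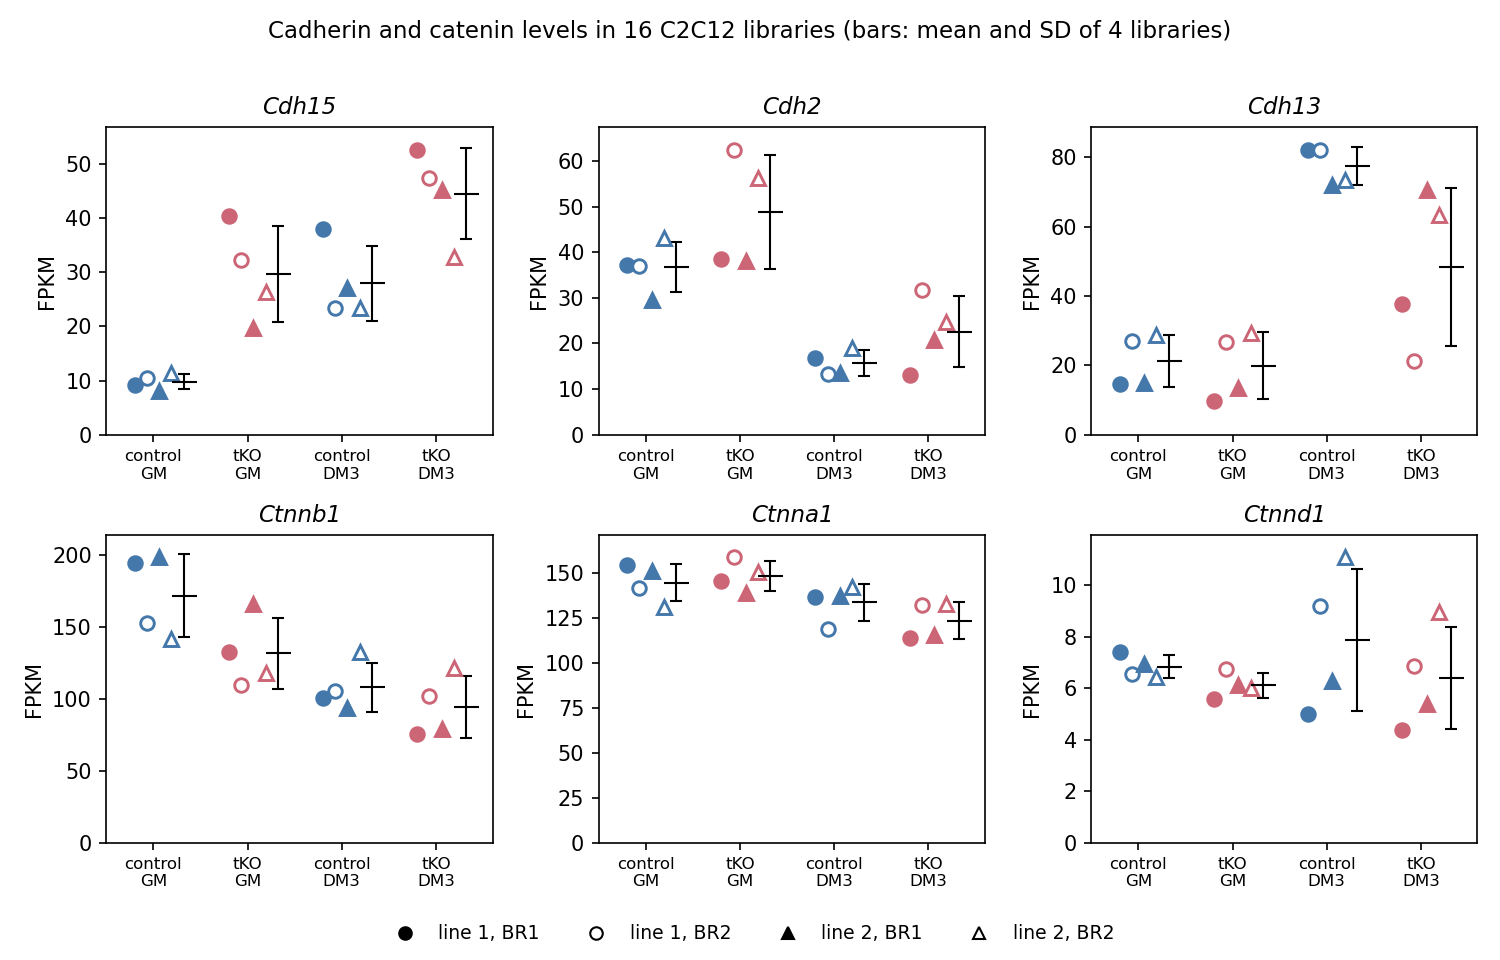
FPKM of the 6 tested cadherin and catenin genes in each of 16 libraries (vertical axes, linear from 0) by genotype and stage, with blue for control and red for tKO, circles and triangles for line or clone 1 and 2, filled and open symbols for BR1 and BR2, and black bars for the mean and SD of 4 libraries. Cdh15 in tKO GM sits between 19.6 and 40.3 FPKM, above all control GM values, while filled and open symbols of Cdh13 separate in GM in both genotypes.

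N-cadherin went the other way during differentiation. In GM it was more abundant than Cdh15 and Cdh13 in every library except clone 1 BR1, where Cdh15 at 40.3 FPKM exceeded Cdh2 at 38.5 FPKM. Control GM libraries held 37.1 and 37.0 FPKM in line 1 and 29.6 and 43.0 FPKM in line 2. Control DM3 libraries held 16.9, 13.2, 13.6 and 19.0 FPKM in the same order. All DM3 values lay below all GM values. The mean fell from 36.7 ± 5.49 to 15.7 ± 2.78 FPKM (SD, n = 4 each), a log2 difference of -1.18 (SE 0.22, adjusted p = 0.000261).

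A decrease was also measured in knockout cells. Cdh2 stood at 38.5 and 62.5 FPKM in clone 1 and 38.0 and 56.2 FPKM in clone 2 in GM, and at 13.1, 31.7, 20.7 and 24.7 FPKM in DM3. The highest DM3 value stayed below the lowest GM value. The log2 difference was -1.11 (SE 0.22, adjusted p = 0.000427). Between genotypes in DM3 the means were 15.7 ± 2.78 and 22.5 ± 7.76 FPKM (SD, n = 4 each) and the ranges overlapped. The log2 difference of 0.45 did not pass (95% interval -0.03 to 0.92, adjusted p = 0.330), and in GM it was 0.38 as a description. It came mostly from BR2, at 0.78 in DM3 against 0.11 among BR1 libraries.

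T-cadherin rose as cells differentiated. Control GM libraries held 14.7 and 27.0 FPKM in line 1 and 14.97 and 28.6 FPKM in line 2, and control DM3 libraries held 82.2, 82.1, 72.1 and 73.3 FPKM. The mean went from 21.3 ± 7.51 to 77.4 ± 5.48 FPKM (SD, n = 4 each), a ratio of 3.63 and a log2 difference of 1.87 (SE 0.36, adjusted p = 0.000327). In the knockout cells Cdh13 went from 9.82 and 26.7 FPKM to 37.7 and 21.3 FPKM in clone 1, and from 13.4 and 29.4 FPKM to 70.5 and 63.3 FPKM in clone 2. Clone 1 BR2 was therefore lower in DM3 than in GM. The log2 difference over both clones was 1.23 (SE 0.36, adjusted p = 0.00793), and without clone 2 it was 0.76 with an adjusted p of 0.140.

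In DM3 all 4 knockout libraries lay below all 4 controls for T-cadherin, and the clones differed. Clone 2, at 70.5 and 63.3 FPKM, was just under the lowest control value of 72.1 FPKM, while clone 1, at 37.7 and 21.3 FPKM, was far below it. The means were 77.4 ± 5.48 and 48.2 ± 22.8 FPKM (SD, n = 4 each). The log2 difference of -0.81 (SE 0.36, 95% interval -1.58 to -0.04) did not pass (adjusted p = 0.272). It was -1.50 for clone 1 with control line 1 and -0.12 for clone 2 with control line 2. Without clone 2 it was -1.41 with an adjusted p of 0.0266, without clone 1 it was -0.21, and over all alternatives the adjusted p ran from 0.0266 to 0.930. T-cadherin is also found on endothelial cells, and all 8 endothelial markers listed stayed below 0.5 FPKM in every library. The part of endothelial cells in the Cdh13 values was not tested.

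Markers of other cells moved with genotype in DM3. The mean log2 level of 8 fibroblast and adipogenic markers was 2.01 to 2.42 in controls and 1.73 to 1.96 in knockouts, while their summed levels of 83.6 to 253.1 and 66.8 to 166.8 FPKM overlapped. Of these, Dcn (decorin) was at 30.1 ± 4.25 FPKM in controls and 9.50 ± 4.31 FPKM in knockouts (SD, n = 4 each), 3 of the 8 stayed below 0.5 FPKM in all libraries, and the fat cell gene Adipoq did not exceed 0.0964 FPKM in DM3. The summed level of 7 neural and Schwann markers was 1.12 to 1.80 FPKM in controls and 2.91 to 8.17 FPKM in knockouts. It came mostly from the tubulin gene Tubb3, and 6 of the 7, the defining Sox10 among them, stayed below 0.5 FPKM in all libraries. The part of these markers in the Cdh13, Cdh15 and Cdh2 differences was not tested.

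R-cadherin and cadherin-11 were near the limit of detection and were not tested. Cdh4 was at 0 in 12 of the 16 libraries and reached 6 fragments in clone 1 BR2 of DM3. Cdh11 was at 0 in all 8 knockout libraries and reached 8 fragments in control line 1 BR2 of GM. No ratio was formed from these values, since a count of 0 allows up to 3 fragments.

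No member passed in the comparison of knockout with control cells in DM3. In limma 0 of the 6 tested members were called, against 3.38% of all tested genes, 2 had an unadjusted p under 0.05 (Cdh15 and Cdh13), and limma-voom on the recovered fragment numbers also called 0. For 1 of the 6, Cdh13, the groups did not overlap, a state found in 8.52% of all tested genes. The differentiation contrasts moved most of the transcriptome. In controls 3 of the 5 tested members other than Cdh15 passed (Cdh2, Cdh13 and Ctnnb1), against 61.5% of all tested genes. In knockouts 4 of 5 passed (the same 3 and Ctnna1), against 60.9%. Over all tested genes most that passed fell (4529 of 7272 in controls and 4257 of 7208 in knockouts). With median-of-ratios scaling the calls were even, with 3611 higher and 3631 lower in controls and 3571 higher and 3587 lower in knockouts. That scaling took the median of all genes from -0.15 to 0.01 in controls and from -0.12 to 0.01 in knockouts, and relative to it Cdh2 still fell by 0.98 and 0.96 and Cdh13 still rose by 2.07 and 1.38 on the log2 scale.

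**Figure D2:**
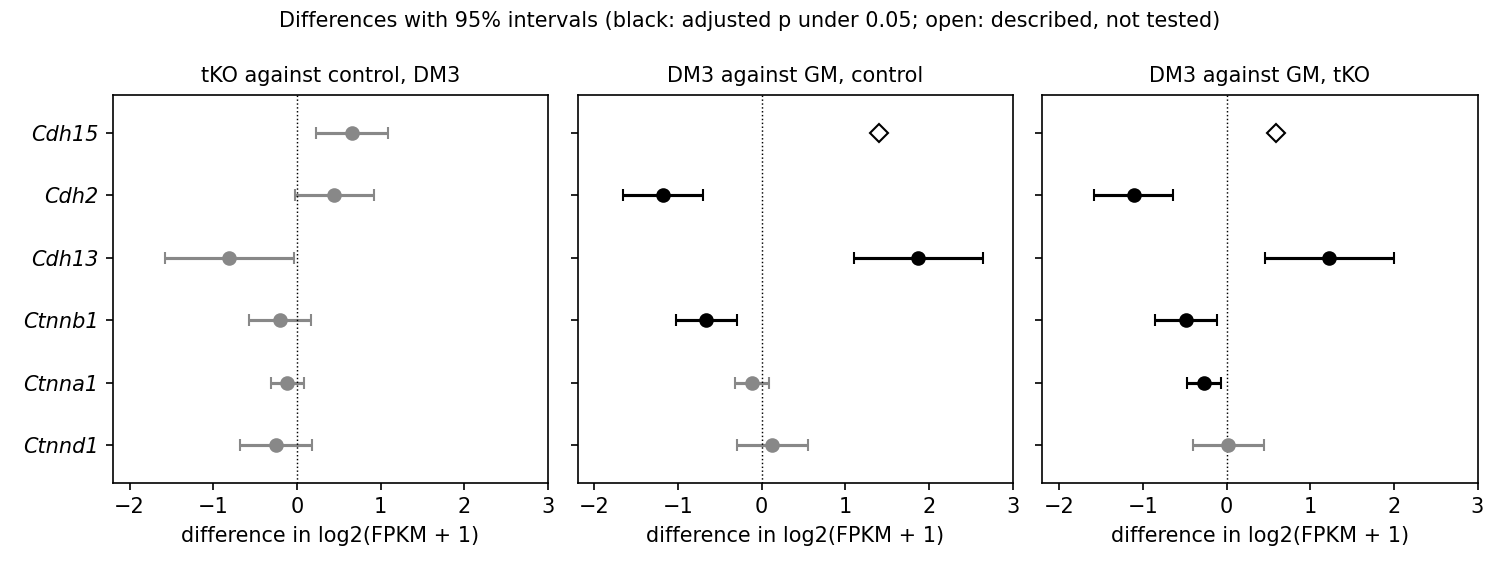
Differences in log2(FPKM + 1) (horizontal axes) of the 6 tested genes between tKO and control in DM3 and between DM3 and GM in each genotype, with 95% intervals from limma, black where the adjusted p was under 0.05, grey where it was not, and open diamonds where Cdh15 was described and not tested. Cdh2 lies at -1.18 and -1.11 and Cdh13 at 1.87 and 1.23 in the stage panels, and no gene is black in the genotype panel.

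The makeup of cadherin mRNA changed as these genes moved. FPKM of 23 cadherin genes, the 5 members and 18 others, were summed in each library. In GM the sum was 60.8 to 98.2 FPKM for controls and 82.8 to 136.5 FPKM for knockouts, and in DM3 it was 121.9 to 148.6 FPKM and 119.1 to 150.1 FPKM. M-cadherin made up 11.5% to 13.4% of it in control GM and 20.8% to 38.0% in tKO GM. In DM3 its share was 17.9% to 25.6% in controls and 23.5% to 44.2% in knockouts. T-cadherin took 55.3% to 63.5% of the DM3 sum in controls against 16.6% to 47.0% in knockouts. The clones differed, with Cdh13 in DM3 at 37.7 and 21.3 FPKM in clone 1 and 70.5 and 63.3 FPKM in clone 2. The sum includes Cdh15, which was chosen for its higher level in knockouts, so a higher Cdh15 lowers the shares of the others. For controls the ratio of Cdh15 to Cdh2 was 0.247 to 0.282 in GM and 1.23 to 2.25 in DM3, and for knockouts it was 0.470 to 1.05 in GM and 1.33 to 4.03 in DM3.

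**Figure D3:**
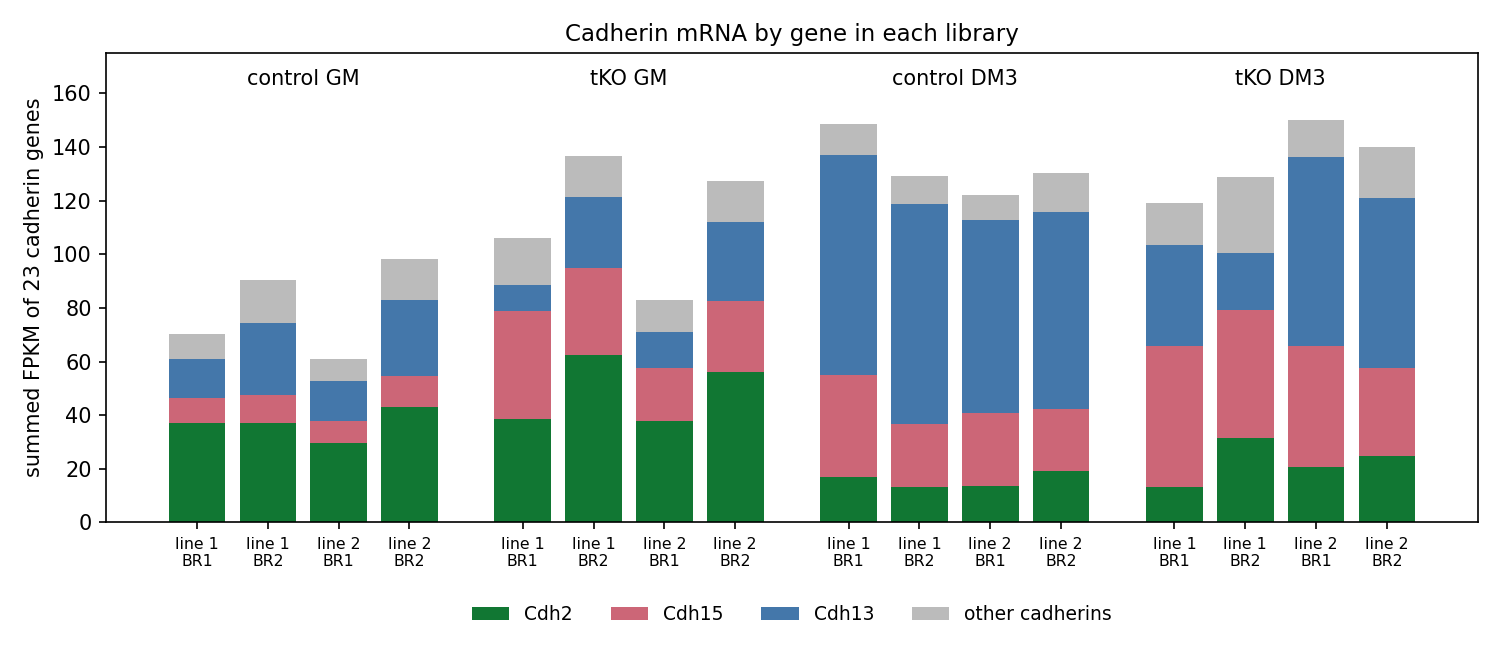
Summed FPKM of 23 cadherin genes (vertical axis, linear from 0) in each of 16 libraries, stacked as Cdh2, Cdh15, Cdh13 and the other 20 cadherins, in 4 blocks by genotype and stage. Cdh2 is the thickest layer in control GM and Cdh13 in control DM3, and the Cdh15 layer is 11.5% to 13.4% of the bar in control GM and 20.8% to 38.0% in tKO GM.

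Among the 18 other cadherins, 3 reached the level for testing. Cdh18 measured 6.21 ± 2.65 and 9.32 ± 2.26 FPKM in control and tKO GM and 6.43 ± 1.62 and 13.3 ± 6.15 FPKM in control and tKO DM3 (SD, n = 4 each). Cdh24 fell in differentiating controls from 4.48 ± 0.93 to 2.88 ± 0.38 FPKM (SD, n = 4 each), a log2 difference of -0.49 (adjusted p = 0.0166). That call was lost with median-of-ratios scaling (adjusted p = 0.0936) and without control line 1 GM BR2 (0.0632), and the adjusted p ran from 0.00412 to 0.247 over all alternatives. Cdh17 stayed between 0.387 and 3.50 FPKM. None of the 3 passed between genotypes in either stage.

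β-Catenin mRNA was among the higher of the 8, and it was lower after differentiation. In control GM it measured 194.5 and 152.5 FPKM in line 1 and 198.4 and 141.7 FPKM in line 2. In control DM3 it measured 100.3, 105.6, 93.4 and 132.7 FPKM. The ranges did not overlap, and the mean fell from 171.8 ± 28.9 to 108.0 ± 17.2 FPKM (SD, n = 4 each), a log2 difference of -0.66 (SE 0.17, adjusted p = 0.00354). Without control line 1 it was -0.59 with an adjusted p of 0.118, and with median-of-ratios scaling it was -0.46 with an adjusted p of 0.0161, within a range of 5.54e-05 to 0.118 over all alternatives.

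In knockout cells Ctnnb1 measured 132.7 and 109.6 FPKM in clone 1 and 166.2 and 118.2 FPKM in clone 2 in GM, and 75.6, 102.2, 78.8 and 121.7 FPKM in DM3. The ranges overlapped. The log2 difference was -0.48 (SE 0.17, adjusted p = 0.0241). It was -0.94 among BR1 and -0.03 among BR2 libraries, so it came from BR1. The call was lost with median-of-ratios scaling (-0.33, adjusted p = 0.0762), without clone 2 GM BR1 (0.0862), without clone 1 DM3 BR1 (0.0759) and without clone 2 DM3 BR1 (0.0754). It was also lost without all of control line 1 (0.0541), clone 1 (0.0920) or clone 2 (0.0979), within a range of 0.000812 to 0.0979 over all alternatives. Between genotypes the DM3 values did not differ beyond their spread (log2 difference -0.20, 95% interval -0.57 to 0.16, adjusted p = 0.596). In GM the knockout mean of 131.7 ± 24.9 FPKM (SD, n = 4) stood below the control mean, a log2 difference of -0.38 given as a description.

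α-Catenin stayed within a narrow range. For controls it stood at 131.3 to 154.5 FPKM in GM and 118.7 to 142.3 FPKM in DM3, and for knockouts at 138.9 to 158.7 FPKM in GM and 113.7 to 132.7 FPKM in DM3. In knockouts the DM3 values lay below the GM values, with means of 148.5 ± 8.39 and 123.6 ± 10.4 FPKM (SD, n = 4 each) and a log2 difference of -0.27 (SE 0.10, adjusted p = 0.0240). With median-of-ratios scaling it was -0.11 (adjusted p = 0.359), without clone 1 GM BR2 the adjusted p was 0.0641, without clone 1 DM3 BR1 it was 0.0537 and without clone 2 DM3 BR1 it was 0.0669. Leaving out any whole line also lost the call (0.0519 to 0.162), within a range of 0.0194 to 0.359 over all alternatives. In controls the difference was -0.11 (95% interval -0.32 to 0.09, adjusted p = 0.317), and it turned to 0.091 with median-of-ratios scaling. The knockout and control DM3 libraries differed by -0.11 (95% interval -0.32 to 0.09, adjusted p = 0.592).

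p120-Catenin, the 1 member with a miR-206 site, was the lowest catenin and did not pass in any contrast tested. Control libraries measured 7.42, 6.54, 6.95 and 6.43 FPKM in GM and 4.99, 9.18, 6.27 and 11.1 FPKM in DM3. Knockout libraries measured 5.58, 6.74, 6.11 and 6.01 FPKM in GM and 4.36, 6.85, 5.39 and 8.96 FPKM in DM3. Knockout means were below control means in both stages, by -0.14 on the log2 scale in GM as a description and by -0.25 in DM3 (95% interval -0.68 to 0.18, adjusted p = 0.574). The stage differences were 0.13 in controls (95% interval -0.30 to 0.55, adjusted p = 0.600) and 0.02 in knockouts (-0.41 to 0.45, adjusted p = 0.940), and they changed sign to -0.038 without control line 2 DM3 BR2 and to -0.136 without clone 2 DM3 BR2.

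Some members separated by BR number. Cdh13 in GM was 9.82 to 14.97 FPKM in the 4 BR1 libraries and 26.7 to 29.4 FPKM in the 4 BR2 libraries, 2.11-fold higher in BR2 in the mean and higher in each of the 4 lines. This was 1 of 6 members without overlap between the BR numbers in GM, against 9.58% of all tested genes. In DM3 it was 2 of 6, against 10.3%. Ctnnb1 was 75.6 to 100.3 FPKM in BR1 and 102.2 to 132.7 FPKM in BR2, and Ctnnd1 was 4.36 to 6.27 FPKM in BR1 and 6.85 to 11.1 FPKM in BR2. Ctnnb1 went the other way in GM, where BR1 exceeded BR2 in each of the 4 lines and the ranges of 132.7 to 198.4 and 109.6 to 152.5 FPKM overlapped. These counts were made after the values had been seen and carry no test. The labels do not say what the BR numbers stand for.

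Lines of the same genotype were compared over both stages. Between the knockout clones limma called 0 of 6 members, against 1.05% of all tested genes, with 1 unadjusted p under 0.05 and 0 calls by limma-voom. Clone 2 was lower than clone 1 in Cdh15 by -0.50 on the log2 scale (95% interval -0.86 to -0.15, adjusted p = 0.155) and higher in Cdh13 by 0.74 (95% interval -0.08 to 1.56, adjusted p = 0.349). Between the control populations 0 of 6 members were called, against 0% of all tested genes, where 104 had an unadjusted p under 0.05 and limma-voom also called 0. The control populations differed by -0.13 in Cdh15 and -0.06 in Cdh13.

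The wider adhesion genes were set out in 7 lists, of which 87 genes reached the level for testing. They covered other cadherins, atypical cadherins and protocadherins, catenins and their partners, nectins and other adhesion genes of fusion, cadherin signalling, cadherin cleavage and turnover, and the β-catenin destruction complex. In GM 1 of 87 passed between genotypes, against 2.06% of all tested genes. It was Jam3, a junctional adhesion molecule, which was lower in knockouts (0.123 ± 0.0904 against 1.19 ± 0.18 FPKM, SD, n = 4 each, log2 difference -0.96, adjusted p = 0.000138). Jam3 reached the level for testing only because the control libraries raised its mean over all libraries. A lower value in knockouts was therefore favoured by the filter, and this call is not independent of it. The count was 4 with only the compared libraries and 0 with a filter of 5 FPKM. It was 11 without clone 2, 10 without its GM BR1 library, and 2 to 4 without clone 1, control line 2 GM BR2, clone 2 GM BR2, clone 2 DM3 BR2 or either DM3 library of clone 1. The median log2 differences of the lists in GM lay between -0.14 and 0.23, beside -0.01 for all tested genes.

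In DM3 5 of the 87 passed between genotypes, against 3.38% of all tested genes, 3 of them higher and 2 lower in knockouts. Jam3 was again lower (0.00441 ± 0.00883 against 0.830 ± 0.242 FPKM, SD, n = 4 each, log2 difference -0.86, adjusted p = 0.000394). Its knockout values were near the limit of detection. As in GM, it was tested only because the control libraries raised its mean, so this call is not independent of the filter. Csnk1e, a casein kinase that acts in Wnt signalling, was lower by -0.40 (adjusted p = 0.0293). Ncstn (nicastrin, a subunit of the γ-secretase that cleaves cadherins) was higher by 0.46 (28.4 ± 2.57 to 39.5 ± 1.92 FPKM, SD, n = 4 each, adjusted p = 0.00753). Clstn1 (calsyntenin-1) was higher by 0.46 (adjusted p = 0.0245) and Pcdh19 (protocadherin-19) by 0.83 (adjusted p = 0.0491). The count was 12 without clone 2, 1 without control line 1 and 0 without control line 2, and it was 2 to 8 without any single DM3 library. Of 32 alternatives Pcdh19 passed in 9, Csnk1e in 19, Clstn1 in 24 and Ncstn in 28, and Jam3 passed in 30 of 31. Many of these alternatives leave out a single library and still treat libraries of the same line as independent. With line averages as units in limma the calls of Ncstn (adjusted p = 0.079), Clstn1 (0.133), Csnk1e (0.0877) and Pcdh19 (0.0795) were lost. That of Jam3 was kept. The list medians lay between -0.08 and 0.24, beside 0.01 for all tested genes.

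With differentiation 55 of the 87 passed in controls, 19 higher and 36 lower, and 50 passed in knockouts, 22 higher and 28 lower, near the 61.5% and 60.9% of all tested genes. Arvcf, a relative of p120-catenin, rose by 1.99 in controls (1.42 ± 0.19 to 8.62 ± 1.16 FPKM, SD, n = 4 each, adjusted p = 1.45e-09) and by 1.87 in knockouts (adjusted p = 2.69e-09). Actn1, a non-muscle α-actinin that binds α-catenin, fell by 1.85 and 2.21 (adjusted p = 1.74e-05 and 2.65e-06). Pcdh19 fell by 1.86 and 1.27, and Kirrel, an immunoglobulin-type adhesion gene, fell by 1.51 and 1.11. Cdon, a co-receptor that binds cadherins on myoblasts, rose by 0.91 in controls (adjusted p = 0.0269) and 1.66 in knockouts (10.2 ± 4.51 to 36.5 ± 19.9 FPKM, SD, n = 4 each, adjusted p = 0.000459). Axin2, a scaffold of the destruction complex and a known target of Wnt signalling, rose by 1.78 in controls (adjusted p = 0.00034) and 1.25 in knockouts (adjusted p = 0.00538). The knockout value was 0.52 without clone 2 and 1.98 without clone 1, and with line averages as units its adjusted p was 0.0662. Apc fell by 0.86 in controls (adjusted p = 0.00338) and 0.63 in knockouts (adjusted p = 0.0229).

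In the other lists the named genes of cadherin signalling and cleavage rose in both genotypes. Rhoe (Rnd3, a RhoA antagonist) rose by 1.01 in controls and 1.13 in knockouts, Adam15 by 1.07 and 1.17, and Psen2 (presenilin-2) by 1.09 and 0.81. Ptprm, a receptor phosphatase, rose by 1.03 and 0.82, and Elmo1, part of a Rac activator, by 0.84 and 0.94. The signalling list as a whole leaned the other way, since 3 of 21 tested genes rose and 12 fell in controls, and 3 rose and 9 fell in knockouts. The list of cleavage and turnover was mixed. Of its 12 tested genes 2 rose and 4 fell in controls, and 4 rose and 3 fell in knockouts. Of the remaining genes named by the same rule, Cadm1 fell by 1.24 in controls and 0.96 in knockouts, and Fat1 fell by 0.84 and 0.99. Pcdh7 fell by 1.58 in controls (adjusted p = 0.000735), and its difference in knockouts was -0.25 (adjusted p = 0.550). Amer1 rose by 0.72 in knockouts (adjusted p = 0.00553), and its difference in controls was 0.41 (adjusted p = 0.0865). Without clone 2 the knockout calls of Fat1 and Amer1 were lost (adjusted p = 0.0903 and 0.0656), without control line 2 the control call of Ptprm (0.0507), and without either control line that of Apc (0.0858 and 0.0645). Whether the changes differed between genotypes was not tested.

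The genes whose log2 level followed M-cadherin most closely over the 16 libraries were ranked by Pearson's r, as a description. They were Dnajb11 (r = 0.912), Tspan15 (0.904), Cadm4 (0.898), Pcdh1 (0.892) and 0610012G03Rik (0.888). All of them stood higher in tKO than in control GM in the mean and highest in tKO DM3, with Cadm4 at 1.44 and 4.15 FPKM in GM and 4.85 and 12.7 FPKM in DM3 for controls and knockouts, and Pcdh1 at 3.73 and 7.84 FPKM and at 9.15 and 14.3 FPKM in the same order. Among the members, r with Cdh15 was -0.85 for Ctnnb1, -0.46 for Ctnna1, -0.33 for Ctnnd1, -0.32 for Cdh2 and 0.35 for Cdh13. The 16 libraries share stage, genotype and line, so these values are not those of independent samples. The ranking also used the GM libraries by which Cdh15 was chosen. The order of groups that the 5 genes share with Cdh15 therefore follows from how they were picked and is no separate result.

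Pcdh1, a protocadherin, also separated the clones. Among the 87 list genes 3 passed between clone 2 and clone 1, against 1.05% of all tested genes, and these were named after their values had been seen. Pcdh1 was lower in clone 2 by -0.86 on the log2 scale (adjusted p = 0.0301) and Pkp1 (plakophilin-1) by -1.08 (adjusted p = 0.0170). Ptprf, a receptor phosphatase, was higher in clone 2 by 1.55 (adjusted p = 0.0278). Over the alternatives the adjusted p reached 0.117, 0.0759 and 0.139 for these 3 genes. Pcdh1 kept its call in 9 of 17 alternatives, Pkp1 in 10 of 16 and Ptprf in 9 of 16.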

How the data were processed

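The authors deposited 1 table of FPKM values with gene lengths and mm10 coordinates for 16 libraries. Per the submitters' processing notes, STAR, DESeq and mm10 were used, and the annotation, the counting step and whether it used strand are not given in the sources used here. Columns were assigned through the sample names in the labels' description. In these FPKM values 100% of the deposited entries were whole multiples of 1 fragment within 0.05 fragments, so fragment numbers were recovered. Differences were fitted in limma 3.58.1 (R 4.3.3) on log2(FPKM + 1) with trend and robust moderation, 1 mean per group over all 16 libraries, and Benjamini-Hochberg adjustment over 11832 genes with a mean of at least 0.5 FPKM. Clones and populations were compared within genotype with stage in the fit. The threshold was an adjusted p of 0.05, and the code was tested on simulated data. limma-voom on the recovered fragment numbers called 203 genes between genotypes in GM, 402 in DM3, 7355 with differentiation in controls and 7144 in knockouts, where the fit on FPKM called 244, 400, 7272 and 7208. Alternatives covered the pseudocount, filters, scalings, moderation, the BR number as a block, lines as units and leaving out each library or line. Named list genes were those past the threshold, at most 4 per list between genotypes and 2 per list with differentiation, by size. The members and lists were chosen with earlier results of these data known. Gene coordinates of members are in the deposited table. Protein sequences and miR-1a-3p were not used here. Numpy 2.4.6, pandas 2.3.3 and matplotlib 3.10.9 were used. Precision is limited by 2 lines a genotype and 4 libraries a group, and fragment limits cover counting error only.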

Additional observations from a re-analysis of the deposited data

How the results depend on the processing

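The knockout rests on 2 clones, and depth allowed no statement on Cdh4 and Cdh11. Leaving out clone 2 (tKO line 2) took the members called in DM3 between genotypes from 0 to 2 and those called with differentiation in knockouts from 4 to 1. The second count was 2 with median-of-ratios scaling, with only the compared libraries, without control line 1 and without tKO line 1, and 2 to 4 when single libraries were left out. The wider list genes called in GM went from 1 to 0 with a filter of 5 FPKM, to 2 and 8 with the BR number as a replicate block (overall and within each stage), to 4 with only the compared libraries, to 2 without tKO line 1, to 11 without tKO line 2, and ran from 1 to 10 when single libraries were left out. Same-numbered control and knockout libraries correlated at 0.096 to 0.452 in GM and -0.224 to 0.558 in DM3, so the BR numbers were not taken as pairs, and the replicate block changed no member's call. Values changed sign for Ctnna1 in controls with median-of-ratios scaling (0.091) and for Ctnnd1 without control line 2 (-0.029 in controls) or clone 2 (-0.137 in knockouts). With single libraries left out the Ctnnd1 difference between stages ran from -0.038 to 0.3 in controls and from -0.136 to 0.161 in knockouts. Genes called ran from 33 to 1315 around 244 in GM, from 49 to 1136 around 400 in DM3, from 41 to 902 around 124 between clones, from 4440 to 8293 around 7272 in differentiating controls and from 5230 to 7906 around 7208 in knockouts. List genes called in DM3 ran from 0 to 12 around 5, between clones from 0 to 10 around 3, and with differentiation in controls from 28 to 65 around 55. The cause of these shifts was not tested.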
